A study of Mus musculus with 6 samples.

Results

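The genes of the proteasome were compared between livers of ethanol-fed mice with a hepatocyte-specific knockout of ACSS2 and livers of ethanol-fed control mice. They were taken as the rows of the deposited gene table whose symbol begins with Psma, Psmb, Psmc, Psmd, Psme or Psmf followed by a number, which gave 46 of 16135 rows. Of the 46 rows, 44 averaged 1 FPKM or more and were tested. FPKM is the number of fragments scaled to gene length and to the library's total, so levels of different genes can be set side by side on it. The rows below that level were Psma8, an alpha ring subunit of the testis, and Psmc3ip. Psmc3ip, a factor of meiotic recombination, and Psme3ip1, a protein that binds the nuclear activator PSME3, carry symbols that fit the rule but are not proteasome subunits.

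The proteasome is the barrel-shaped protease that degrades proteins tagged with ubiquitin. Its core is a stack of rings, with alpha subunits as the gate and beta subunits in the middle, and a regulatory cap of ATPase and non-ATPase subunits binds, unfolds and feeds in the substrate. Interferon-gamma and other inflammatory signals exchange the constitutive catalytic subunits PSMB6, PSMB7 and PSMB5 for PSMB9, PSMB10 and PSMB8, which gives the immunoproteasome, whose peptides are favoured for presentation on MHC class I. Leukocytes hold immunoproteasome at rest, while hepatocytes hold mostly the constitutive form.

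Whole-liver RNA was sequenced in 6 libraries. The ACSS2-HKO group (n = 3) had a knockout of Acss2, the gene of an enzyme that makes acetyl-CoA from acetate, restricted by its design to hepatocytes. The ACSS2-flox group (n = 3) carried the floxed gene and is the control. A Lieber-Decarli liquid diet with ethanol, fed for 10 days, and 1 ethanol binge after it were common to both genotypes, so there was no group without ethanol. The sources used here give no Cre driver, strain, sex or age. Whether each library is a separate animal is not in the labels. The p-values thus set the genotype difference against the spread within these groups of samples, and that spread may be technical.

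The totals implied by the values ran from 35362997 to 39474527 fragments in ACSS2-HKO and from 33717125 to 38321306 in ACSS2-flox. Acss2 itself had 50.6, 38.4 and 45.7 FPKM in ACSS2-HKO, against 87.8, 61.5 and 58.5 FPKM in ACSS2-flox, with a limma adjusted p of 0.637. This value covers the whole gene and every liver cell type, so exons outside the deleted part and other cells can also feed it. What the remaining value in ACSS2-HKO comes from was not tested. The 10 hepatocyte markers were all present and summed to 50500 to 59474 FPKM in ACSS2-HKO and 60239 to 90443 FPKM in ACSS2-flox. Only 1 of these 10 was higher on average in ACSS2-HKO. Of 2 libraries that stood apart from the other 4, 1 was ACSS2-HKO replicate 3, at -27.59 on the first principal component of the tested genes, and the other was ACSS2-flox replicate 1, at 47.67. The remaining libraries lay between -8.49 and -2.51 on this component, which held 47.2% of the variance.

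No proteasome gene differed between the genotypes after adjustment. By limma on log2(FPKM + 1), 0 of the 44 tested rows had an adjusted p under 0.05, and the smallest was 0.670. Over all 9818 genes tested limma called 0 as well (0%). With unadjusted p-values and the same limit, 0 rows were higher and 0 lower in ACSS2-HKO, where 6.09% of all genes were higher and 1.5% lower. A second tool, voom on the recovered fragment counts, also called 0 genes after adjustment and 0 proteasome rows at an unadjusted p under 0.05. The log2 fold change, ACSS2-HKO minus ACSS2-flox, was positive for 29 of the 44 rows, with a median of 0.06, beside 6483 of 9818 and a median of 0.10 for all genes tested. The majority turned with scaling, as 13 of the 44 rows were positive with trimmed means of M-values (TMM) and with median-ratio factors, beside 4242 and 4331 of 9818 genes.

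Most proteasome transcripts had close means in the genotypes. In 39 of the 44 rows the means of ACSS2-HKO and ACSS2-flox lay within 1.2-fold of each other, a share of 88.6%, beside 58.6% of all genes tested and 63.65% of the 5764 genes with at least 5 FPKM. The SD of log2(FPKM + 1) over the 6 libraries had a median of 0.22 for the proteasome rows and 0.27 for all genes tested. It was larger for the inducible catalytic subunits, at 0.60 for Psmb9, 0.36 for Psmb8 and 0.35 for Psmb10. Groups did not overlap for 3 rows that were higher in ACSS2-HKO, Psmd13, Psmc3 and Psmd7, and for 2 that were lower, Psmc6 and Psmd6, of which Psmd7, Psmc6 and Psmd6 were named after their values were seen. Over all genes tested 12.5% were higher and 2.94% lower without overlap.

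**Figure D1:**
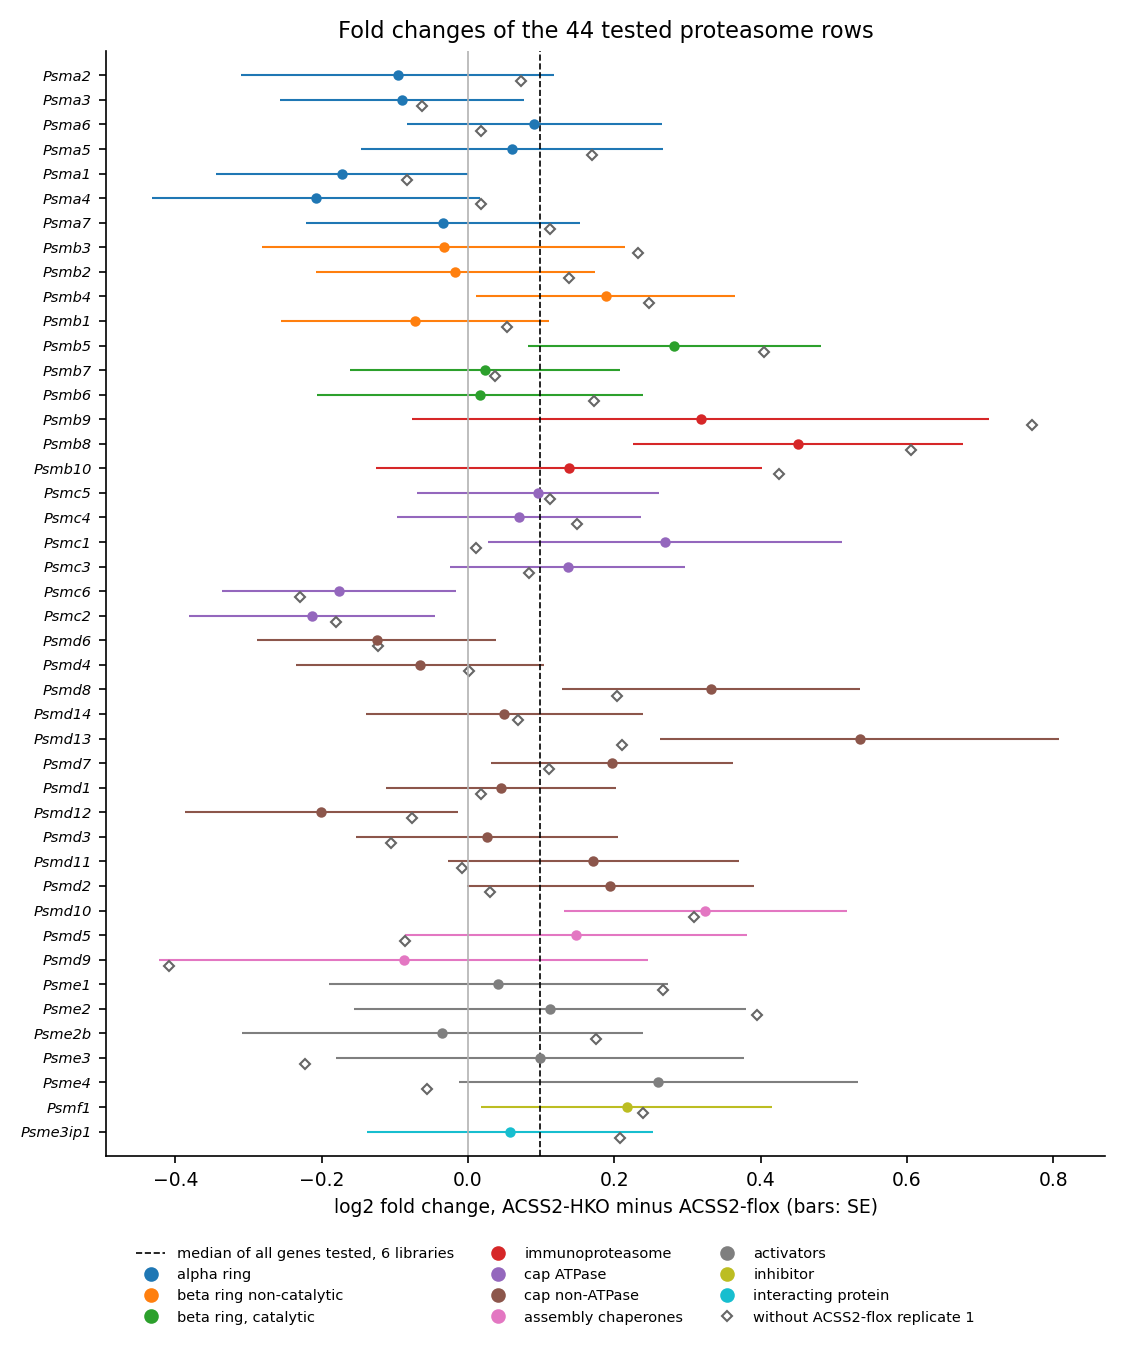
Log2 fold changes (ACSS2-HKO minus ACSS2-flox, x axis) of the 44 tested proteasome rows (y axis), as filled points with SE bars, coloured by the role of the subunit. The dashed line is the median of all genes tested, 0.10, and open diamonds are the values without ACSS2-flox replicate 1. Psmd13 at 0.54 and Psmb8 at 0.45 lie farthest to the right with all libraries, and Psmb9 at 0.77 without that library.

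The inducible catalytic subunits varied more from library to library than the median proteasome row, and their promoters are shown because the subunits moved together across libraries, with those of the constitutive partners Psmb5 and Psmb6 for comparison. That of the activator gene Psme1 is shown for its interferon-type match. RefSeq promoter windows (GRCm38.p6, the mm10 assembly), from 250 bases before to 50 bases after the start site, matched 39 of the 46 rows, in 43 windows. Capitals mark matches, on either strand, to GAAANNGAA (the core of an interferon-stimulated element), TTCNNNGAA (the gamma-activated type), TGACNNNGC (the antioxidant type bound by NFE2L1 and NFE2L2) and, in the Psmb9 window alone, the boxes CCAAT (as ATTGG on the other strand) and, farther from the start site, GGGCGG. The Psmb6 and Psme1 windows hold 1 GGGCGG each, left in lower case. None of the marked matches overlaps another. Psmb8 lies at chr17:34197945-34198244 on the plus strand, Psmb9 at chr17:34187281-34187580 on the minus strand, Psmb10 at chr8:105938343-105938642 on the minus strand, Psmb5 at chr14:54617946-54618245 on the minus strand, Psmb6 at chr11:70525107-70525406 on the plus strand and Psme1 at chr14:55578244-55578543 on the plus strand.
Psmb8: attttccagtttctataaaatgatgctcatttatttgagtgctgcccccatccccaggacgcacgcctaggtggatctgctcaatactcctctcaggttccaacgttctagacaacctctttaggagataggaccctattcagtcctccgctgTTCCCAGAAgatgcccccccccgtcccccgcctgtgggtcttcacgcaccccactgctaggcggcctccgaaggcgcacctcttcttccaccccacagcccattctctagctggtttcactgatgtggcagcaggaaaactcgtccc
Psmb9: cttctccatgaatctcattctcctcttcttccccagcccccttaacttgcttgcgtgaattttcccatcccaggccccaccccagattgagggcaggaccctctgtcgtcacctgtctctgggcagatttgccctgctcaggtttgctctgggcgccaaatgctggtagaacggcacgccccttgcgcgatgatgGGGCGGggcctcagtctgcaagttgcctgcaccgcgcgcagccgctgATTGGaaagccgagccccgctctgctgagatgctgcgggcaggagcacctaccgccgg
Psmb10: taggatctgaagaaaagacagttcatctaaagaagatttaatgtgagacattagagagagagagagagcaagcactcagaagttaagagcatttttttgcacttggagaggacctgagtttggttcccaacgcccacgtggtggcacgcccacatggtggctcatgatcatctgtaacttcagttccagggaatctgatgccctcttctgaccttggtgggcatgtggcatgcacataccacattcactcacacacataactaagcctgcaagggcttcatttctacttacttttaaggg
Psmb5: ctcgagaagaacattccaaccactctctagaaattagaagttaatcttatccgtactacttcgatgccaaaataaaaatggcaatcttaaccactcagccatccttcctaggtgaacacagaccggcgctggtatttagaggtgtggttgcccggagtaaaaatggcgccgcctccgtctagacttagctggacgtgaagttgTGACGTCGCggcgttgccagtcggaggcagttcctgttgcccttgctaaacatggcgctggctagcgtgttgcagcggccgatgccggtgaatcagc
Psmb6: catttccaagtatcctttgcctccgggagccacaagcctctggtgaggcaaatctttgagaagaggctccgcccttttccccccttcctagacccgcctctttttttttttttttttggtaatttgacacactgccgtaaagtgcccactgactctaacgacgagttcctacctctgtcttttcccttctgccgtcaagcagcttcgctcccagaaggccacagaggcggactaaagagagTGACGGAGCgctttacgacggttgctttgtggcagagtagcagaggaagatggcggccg
Psme1: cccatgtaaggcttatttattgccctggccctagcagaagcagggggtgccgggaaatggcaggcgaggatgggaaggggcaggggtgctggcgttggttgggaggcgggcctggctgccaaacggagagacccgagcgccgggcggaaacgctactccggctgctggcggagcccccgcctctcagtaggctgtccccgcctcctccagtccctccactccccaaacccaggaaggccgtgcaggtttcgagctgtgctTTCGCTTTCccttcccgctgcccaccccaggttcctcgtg

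The Psmb8 window held 1 TTCNNNGAA match, 97 bases before the start site, the Psmb9 window held CCAAT at -8 and GGGCGG at -55, and the Psmb10 window held none of the 5 motifs. The windows of the constitutive genes Psmb5 and Psmb6 each held 1 TGACNNNGC match, at -47 and -9 from the start site. That of Psme1 held 1 GAAANNGAA match on the minus strand, 11 bases after the start site. This motif also lay in a window each of Psmb3, Psmb4, Psmc2, Psmd4 and Psmd9, and in no window of Psme2, Psmb8, Psmb9 or Psmb10. GAAANNGAA was found in 14% of the proteasome windows and 8.56% of all 32851 windows of the table, TTCNNNGAA in 4.65% and 8.3%, TGACNNNGC in 14% and 12.4%, CCAAT in 34.9% and 37.4%, and GGGCGG in 55.8% and 35.7%. Among the 16033 windows of genes in the FPKM table GGGCGG stood in 56.5%. A match is a description of letters in a window and says nothing of binding there. Psmb9 and the peptide transporter gene Tap1 have start sites 226 bases apart on opposite strands, so the printed Psmb9 window also holds the start of Tap1. In this build Psmb8 (chromosome 17, 34198195 to 34201454) and Psmb9 (chromosome 17, 34182030 to 34187330) lie in the MHC class II region on either side of Tap1, and Psmb10 lies apart from them (chromosome 8, 105935728 to 105938392).

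Alpha ring genes, which form the gate of the core, had no set direction between the genotypes. Of the 7 tested, 2 were positive on the log2 scale, the median fold change was -0.09, and the range was -0.21 to 0.09. Without ACSS2-flox replicate 1, however, 5 of 7 were positive and the median was 0.02. Psma4, the most abundant, had 108, 105 and 96.1 FPKM in ACSS2-HKO, against 163, 99.1 and 104 FPKM in ACSS2-flox. The high value was that of ACSS2-flox replicate 1 alone, and the other 5 libraries overlapped. Psma4 differed by -0.21 ± 0.22 (log2, SE; limma adjusted p = 0.848), and by 0.02 without that library.

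Psma1 had the smallest p of the alpha ring. It had 75.3, 78.5 and 72.2 FPKM in ACSS2-HKO, against 96.3, 74.9 and 85.0 FPKM in ACSS2-flox. The groups overlapped, and ACSS2-flox replicate 1 was again the highest. It differed by -0.17 ± 0.17 (log2, SE), at a limma adjusted p of 0.832. Means of the remaining tested alpha genes ran from 30.4 FPKM for Psma5 to 99.96 FPKM for Psma6. Psma8, the testis subunit, had 9, 13 and 27 fragments in ACSS2-HKO and 22, 43 and 25 in ACSS2-flox, at most 0.585 FPKM.

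Beta ring genes without catalytic activity were among the most abundant proteasome transcripts, with means of 85.6 to 144 FPKM. Of the 4, 1 was positive, and the median log2 fold change was -0.03. This turned without ACSS2-flox replicate 1, where 4 of 4 were positive with a median of 0.19, and without both distant libraries, where 4 of 4 were positive with a median of 0.20. Psmb4, both the most abundant and the one of smallest p, had 158, 163 and 140.1 FPKM in ACSS2-HKO, against 146, 119 and 140.1 FPKM in ACSS2-flox. Its groups overlapped, with the highest values in 2 of the ACSS2-HKO libraries and the lowest in ACSS2-flox replicate 2. The log2 fold change was 0.19 ± 0.18 (SE) and the limma adjusted p 0.814. Psmb1, Psmb2 and Psmb3 each had their highest value in ACSS2-flox replicate 1, at 159, 106 and 139 FPKM.

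The constitutive catalytic subunits did not differ between genotypes after adjustment. Psmb6, the caspase-like subunit and the most abundant of all proteasome rows, had 160.2, 160.5 and 119 FPKM in ACSS2-HKO, against 178, 117 and 141 FPKM in ACSS2-flox. Psmb7, the trypsin-like subunit, had 131, 147 and 107 FPKM in ACSS2-HKO, against 128, 119.8 and 128 FPKM in ACSS2-flox. The groups overlapped for both, and the lowest Psmb7 value and the second lowest of Psmb6 were those of ACSS2-HKO replicate 3. Their log2 fold changes were 0.02 ± 0.22 and 0.02 ± 0.18 (SE), with limma adjusted p of 0.992 and 0.981, and 95% intervals from -0.49 to 0.53 and from -0.40 to 0.45.

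Psmb5, the chymotrypsin-like subunit and the main target of proteasome inhibitors used as drugs, read higher on average in ACSS2-HKO. It had 105, 120.0 and 94.2 FPKM in ACSS2-HKO, against 103, 71.3 and 89.2 FPKM in ACSS2-flox. ACSS2-flox replicate 1 lay among the ACSS2-HKO values and the other 2 ACSS2-flox libraries below all of them. The mean was 106 ± 12.9 FPKM in ACSS2-HKO and 87.9 ± 16.0 FPKM in ACSS2-flox (SD, n = 3 each), and the log2 fold change was 0.28 ± 0.20 (SE), at a limma adjusted p of 0.747. By exact permutation p was 0.2, where 3 against 3 allows no p below 0.1. Leaving out ACSS2-flox replicate 1 gave a log2 fold change of 0.40, at a limma adjusted p of 0.525.

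Within each genotype the immunoproteasome subunits were highest in the same library, ACSS2-HKO replicate 3 and ACSS2-flox replicate 1. Psmb8, which takes the place of PSMB5, had 32.5, 37.0 and 50.6 FPKM in ACSS2-HKO, against 35.6, 25.0 and 26.1 FPKM in ACSS2-flox. ACSS2-HKO replicate 3 was the highest, and ACSS2-flox replicate 1 was the sole ACSS2-flox library within the ACSS2-HKO range. The mean was 40.0 ± 9.45 FPKM in ACSS2-HKO and 28.9 ± 5.82 FPKM in ACSS2-flox (SD, n = 3 each), a log2 fold change of 0.45 ± 0.23 (SE) at a limma adjusted p of 0.670 and an exact permutation p of 0.2. Its 95% interval ran from -0.07 to 0.97. These values come from 1406, 1623 and 2445 fragments in ACSS2-HKO and 1467, 1137 and 1222 in ACSS2-flox, so counting error is small beside the spread between libraries. In whole liver, more cells that hold a transcript and more of it per cell cannot be told apart.

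Psmb9, which takes the place of PSMB6, was the least abundant of the inducible subunits. It had 14.7, 12.1 and 23.6 FPKM in ACSS2-HKO, against 24.8, 9.03 and 9.12 FPKM in ACSS2-flox. The highest library was ACSS2-flox replicate 1, followed by ACSS2-HKO replicate 3, and the groups overlapped. The mean was 16.8 ± 6.03 FPKM in ACSS2-HKO and 14.3 ± 9.09 FPKM in ACSS2-flox (SD, n = 3 each), and the log2 fold change was 0.32 ± 0.39 (SE), at a limma adjusted p of 0.872 (exact permutation p = 0.6).

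Psmb10, which takes the place of PSMB7, showed the same order of the 2 highest libraries as Psmb9. It had 29.1, 30.5 and 38.6 FPKM in ACSS2-HKO, against 44.4, 24.1 and 23.8 FPKM in ACSS2-flox. ACSS2-flox replicate 1 was above, and the other ACSS2-flox libraries below, all ACSS2-HKO libraries. The mean was 32.7 ± 5.15 FPKM in ACSS2-HKO and 30.7 ± 11.8 FPKM in ACSS2-flox (SD, n = 3 each), and the log2 fold change was 0.14 ± 0.26 (SE), at a limma adjusted p of 0.922 (exact permutation p = 0.6). The direction of Psmb10 turned with scaling, at -0.035 with TMM, -0.029 with median-ratio factors and -0.018 with voom, while Psmb8 and Psmb9 stayed positive under these 3.

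**Figure D2:**
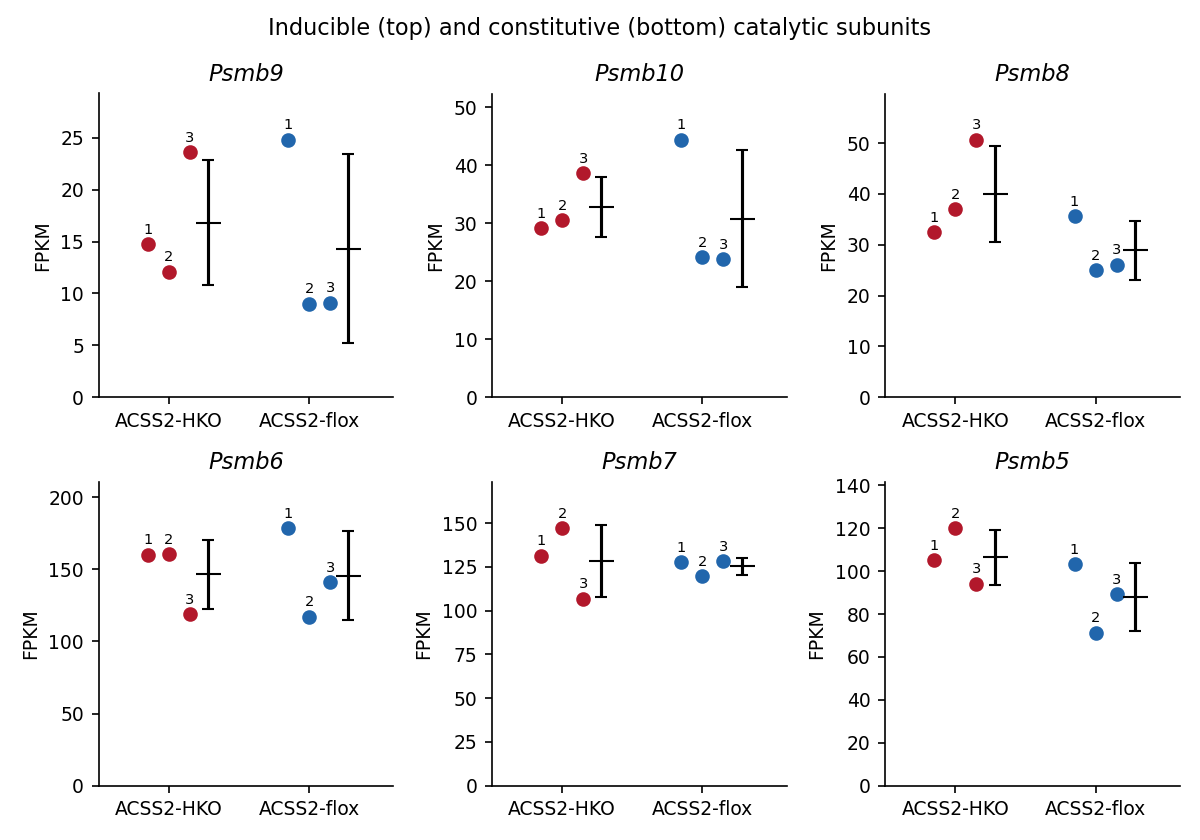
FPKM (y axis, from 0) of the inducible subunits (top) and of the constitutive subunit each replaces (bottom) in the ACSS2-HKO libraries (red, left) and the ACSS2-flox libraries (blue, right), numbered by replicate, with the mean and SD of each group (n = 3) as a bar. In the top row ACSS2-HKO replicate 3 and ACSS2-flox replicate 1 are high, at 23.6 and 24.8 FPKM for Psmb9, and the same ACSS2-HKO library is the lowest of its group in the bottom row.

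Without ACSS2-flox replicate 1 each inducible subunit was higher in every ACSS2-HKO library than in the other 2 ACSS2-flox libraries. The log2 fold changes were then 0.61 for Psmb8, 0.77 for Psmb9 and 0.43 for Psmb10 with 95% intervals from 0.11 to 1.10, from 0.14 to 1.40 and from 0.03 to 0.82. None passed adjustment over all genes by limma, with adjusted p of 0.463, 0.463 and 0.498. In that fit they were the 3 proteasome rows that were higher at an unadjusted p under 0.05, with 0 lower, where 5.11% of all genes were higher, 4.69% lower and 0% passed adjustment. The groups no longer overlapped for 14 of the 44 rows higher and 3 lower in ACSS2-HKO, beside 16.6% and 14.6% of all genes.

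Without ACSS2-HKO replicate 3 the differences were smaller, with log2 fold changes of 0.27 for Psmb8, 0.06 for Psmb9 and 0.02 for Psmb10. Leaving out both distant libraries gave 0.43 for Psmb8, 0.51 for Psmb9 and 0.30 for Psmb10, with limma adjusted p of 0.493, 0.472 and 0.587. In that fit the constitutive partners were positive too, at 0.49 for Psmb5, 0.32 for Psmb6 and 0.16 for Psmb7. Their limma adjusted p were 0.510, 0.618 and 0.791. The median of the 3 inducible subunits was 0.32 with all libraries, 0.61 without ACSS2-flox replicate 1 and 0.06 without ACSS2-HKO replicate 3, beside medians of all genes of 0.10, 0.01 and 0.11.

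Ratios of an inducible subunit to the subunit it replaces do not depend on library scaling. Psmb9 over Psmb6 was 0.0919, 0.0755 and 0.199 in ACSS2-HKO, against 0.139, 0.0771 and 0.0646 in ACSS2-flox. For Psmb10 over Psmb7 the ratio was 0.221, 0.208 and 0.362 in ACSS2-HKO, against 0.347, 0.201 and 0.186 in ACSS2-flox. That of Psmb8 over Psmb5 was 0.309, 0.308 and 0.538 in ACSS2-HKO, against 0.345, 0.350 and 0.292 in ACSS2-flox. All 3 ratios were highest in ACSS2-HKO replicate 3, and the groups overlapped for each. The inducible subunits made up 16.1%, 15.7% and 26.1% of the summed FPKM of the 6 catalytic genes in ACSS2-HKO, against 20.4%, 15.9% and 14.1% in ACSS2-flox. ACSS2-HKO replicates 1 and 2 thus lay within the range of the ACSS2-flox libraries.

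**Figure D3:**
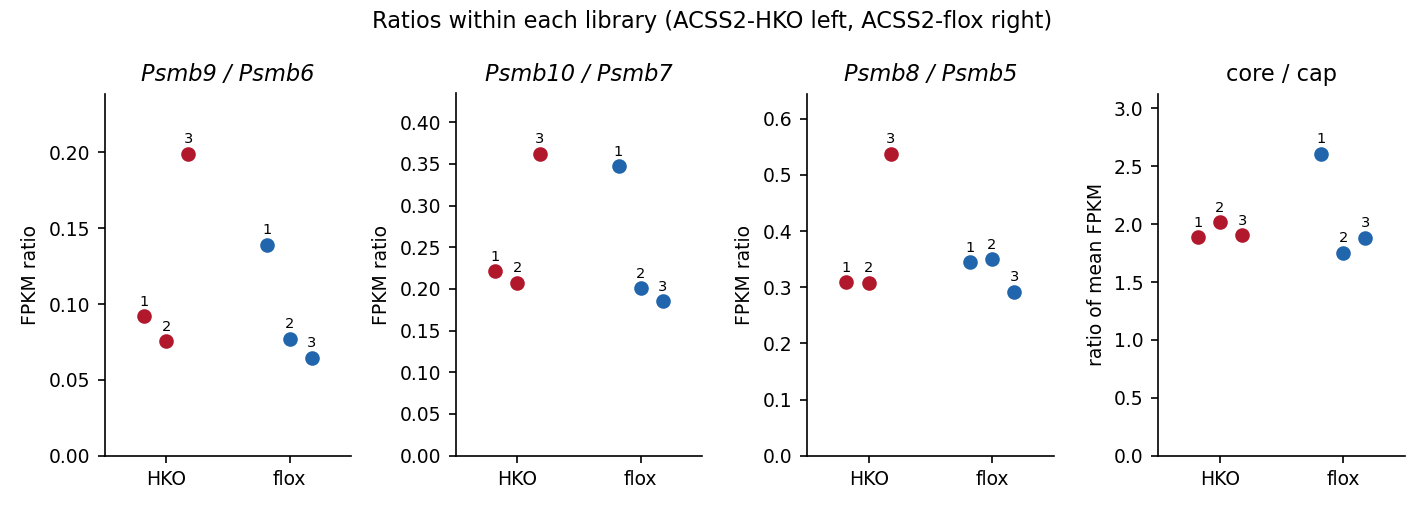
Ratios of FPKM within each library (y axes, from 0) for the inducible over the constitutive subunit of each catalytic site, and for the mean of the constitutive core over the mean of the cap genes, in ACSS2-HKO (red, left) and ACSS2-flox (blue, right), numbered by replicate. ACSS2-HKO replicate 3 is the highest point in the first 3 panels, at 0.199, 0.362 and 0.538, and ACSS2-flox replicate 1 in the last, at 2.61.

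Among the markers of blood cells, which hold immunoproteasome, those of T and NK cells ranked the libraries as these subunits did. The 11 T and NK cell markers in the table, of 12 listed, summed to 8.65, 9.57 and 22.3 FPKM in ACSS2-HKO, against 13.6, 6.42 and 6.81 FPKM in ACSS2-flox. The 3 inducible subunits summed to 76.3, 79.6 and 113 FPKM in ACSS2-HKO, against 105, 58.1 and 59.0 FPKM in ACSS2-flox, and the 2 sums rank the 6 libraries in the same order. Of these markers 7 of 11 were higher on average in ACSS2-HKO, and 4 of the 11 averaged 1 FPKM or more, so the sum rests on low values. Cholangiocyte markers, which are not of blood cells, were also highest in ACSS2-HKO replicate 3 and next in ACSS2-flox replicate 1, at 70.6 and 56.0 FPKM. The order of the remaining libraries differed there, and 1 of those 5 markers averaged 1 FPKM or more. The sum of the inducible subunits was 8.82, 8.32 and 5.07 times the T and NK sum in ACSS2-HKO, against 7.71, 9.04 and 8.66 times in ACSS2-flox. The part of T and NK cells in the result was not tested.

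The other leukocyte lists were highest in ACSS2-HKO replicate 3, and ACSS2-flox replicate 1 was not the second highest in any of them. That library had the lowest pan-leukocyte and the lowest Kupffer cell sum of the 6, and was the lowest for 52.94% of all genes tested. All 10 pan-leukocyte markers were higher on average in ACSS2-HKO, with sums of 124, 120.1 and 277 FPKM, against 102, 109 and 104 FPKM in ACSS2-flox. For Kupffer cells and macrophages 11 of 11 were higher, with sums of 697 to 1722 FPKM in ACSS2-HKO and 375 to 586 FPKM in ACSS2-flox. For neutrophils 10 of 10 were higher, with sums of 39.0 to 359 FPKM in ACSS2-HKO and 8.09 to 17.8 FPKM in ACSS2-flox. B cell markers summed to 3.59 to 6.11 FPKM in ACSS2-HKO and 3.02 to 3.73 FPKM in ACSS2-flox (5 of 6 higher), and dendritic cell markers to 1.495 to 3.66 FPKM in ACSS2-HKO and 1.75 to 2.42 FPKM in ACSS2-flox (4 of 7 higher). No marker of these lists was at 0 in every library. However, an average of 1 FPKM or more was reached by 4 of the 10 neutrophil, 2 of the 6 B cell and 0 of the 7 dendritic cell markers. For pan-leukocyte and Kupffer cell markers it was 9 of 10 and 11 of 11. Their part in the immunoproteasome values was not tested.

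The genes most like the immunoproteasome subunits in pattern were Ifi47, Casp8, Gtf2f1, Apon and Zbp1. Likeness was the Pearson correlation of log2(FPKM + 1) with the mean z-score of the 3 subunits over the 6 libraries, and it ran from 0.98 for Zbp1 to 0.99 for Ifi47 as a description over few points that share libraries. Ifi47, an interferon-inducible GTPase gene, had 6.60, 8.73 and 16.2 FPKM in ACSS2-HKO, against 13.6, 4.19 and 4.49 FPKM in ACSS2-flox. As for Psmb9 and Psmb10, ACSS2-HKO replicate 3 and ACSS2-flox replicate 1 were the highest. Apon, an apolipoprotein gene, had 151, 163 and 260.1 FPKM in ACSS2-HKO, against 248, 125 and 103 FPKM in ACSS2-flox.

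Transcripts of MHC class I peptide loading, the step after the immunoproteasome, read higher on average in ACSS2-HKO. Of the 12 genes listed, all tested, 11 were positive, at a median log2 fold change of 0.36 (0.19 with TMM scaling, 9 positive), and for 7 the groups did not overlap, beside the 12.5% of all genes given above. By limma 0 passed adjustment and 4 were higher by unadjusted p, Tap1, Calr, Pdia3 and H2-D1, of which the last 2 were named after their values were seen. The share of all genes at that limit was 6.09%. The count of 4 became 2 without ACSS2-HKO replicate 3, where 2.87% of all genes were higher, and 1 with TMM or median-ratio scaling, where 3.19% and 3.23% were. Tap1, which carries peptides into the endoplasmic reticulum, had 11.4, 10.8 and 14.9 FPKM in ACSS2-HKO, against 7.92, 6.31 and 6.52 FPKM in ACSS2-flox. Its groups did not overlap, and the log2 fold change was 0.75 ± 0.19 (SE), at a limma adjusted p of 0.580 and an exact permutation p of 0.1, the smallest possible. In ACSS2-flox replicate 1 Tap1 was thus 7.92 FPKM against 6.31 and 6.52 FPKM in the other ACSS2-flox libraries, whereas Psmb9, its neighbour across the printed promoter, was 24.8 FPKM there against 9.03 and 9.12 FPKM. The 2 genes differ in the length implied by the FPKM values, 2866 bases for Tap1 and 1110 for Psmb9. Short and long proteasome genes parted in that library, as given below, and the part of length in this contrast was not tested.

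Calr, a chaperone of class I assembly and of many other proteins, had 437, 425 and 472 FPKM in ACSS2-HKO, against 359.5, 274.5 and 237 FPKM in ACSS2-flox. Its groups did not overlap, at a limma adjusted p of 0.637. B2m, the light chain of class I, had 2970, 2671 and 2770 FPKM in ACSS2-HKO, against 4383, 2658 and 2374 FPKM in ACSS2-flox, and was highest in ACSS2-flox replicate 1. It was named after its values were seen, as the sole listed gene with a negative log2 fold change, -0.11. Pan-leukocyte markers, given above, were also higher on average in ACSS2-HKO, and their part in it was not tested.

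Genes of interferon-gamma signalling and its direct targets were positive for 16 of 16 tested, of 19 listed, with a median log2 fold change of 0.25. Without ACSS2-HKO replicate 3 it was 9 of 16, with a median of 0.01, and without ACSS2-flox replicate 1 it was 14 of 16, with a median of 0.43. By limma 0 passed adjustment, and 2 of 16 were higher by unadjusted p, both without overlap of the groups, beside 6.09% and 12.5% of all genes. Without ACSS2-HKO replicate 3 the unadjusted count was 0 of 16, beside 2.87% of all genes. Irf1, a transcription factor that activates immunoproteasome genes, had 11.8, 9.19 and 21.1 FPKM in ACSS2-HKO, against 8.45, 8.57 and 7.10 FPKM in ACSS2-flox, with a limma adjusted p of 0.649. Ifngr2, a chain of the interferon-gamma receptor, had 15.9, 17.5 and 26.1 FPKM in ACSS2-HKO, against 8.37, 13.3 and 15.4 FPKM in ACSS2-flox. ACSS2-HKO replicate 3 was the highest library for both. Ifng, the cytokine, had 1, 0 and 10 fragments in ACSS2-HKO and 2, 0 and 1 in ACSS2-flox, too few to compare. The median deviation of the list from each gene's mean was 0.59 in ACSS2-HKO replicate 3 and -0.22 in ACSS2-flox replicate 1, where the immunoproteasome subunits had 0.58 and 0.51. All genes tested had medians of 0.01 and -0.25 there, so in ACSS2-flox replicate 1 the list lay near the level of all genes. The list was mixed in that ACSS2-flox library, which was the highest of the 6 for 4 of its genes, Iigp1, Igtp, Irgm1 and Gbp7, all named after their values were seen. Iigp1, an interferon-inducible GTPase gene, had 73.5, 84.2 and 87.4 FPKM in ACSS2-HKO, against 170.1, 57.9 and 50.4 FPKM in ACSS2-flox. Igtp, of the same family, had 27.0, 19.3 and 27.6 FPKM in ACSS2-HKO, against 51.1, 16.7 and 10.9 FPKM in ACSS2-flox.

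The regulatory cap read close to level between genotypes. Of its 17 genes, all tested, 12 were positive and the median log2 fold change was 0.07, whereas with TMM scaling 6 were positive and the median was -0.10. Among the ATPases, the unfolding motor, 4 of 6 were positive. Psmc3, the most abundant, had 79.3, 73.1 and 75.2 FPKM in ACSS2-HKO, against 64.0, 70.4 and 72.6 FPKM in ACSS2-flox, with no overlap, a log2 fold change of 0.14 ± 0.16 (SE) and a limma adjusted p of 0.864. Its direction turned with TMM scaling (-0.038), median-ratio factors (-0.032) and voom (-0.038). Psmc2, the ATPase of smallest p, had 40.4, 48.5 and 39.7 FPKM in ACSS2-HKO, against 52.0, 46.4 and 50.7 FPKM in ACSS2-flox. Here the groups overlapped through ACSS2-HKO replicate 2, and the log2 fold change was -0.21 ± 0.17 (SE), at a limma adjusted p of 0.775.

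Of the 11 non-ATPase subunits 8 were positive, with a median of 0.05. Psmd13, a subunit of the lid that holds the deubiquitinase, had the largest log2 fold change of the tested rows. It had 47.9, 48.1 and 43.8 FPKM in ACSS2-HKO, against 19.9, 40.2 and 40.0 FPKM in ACSS2-flox. The groups did not overlap, and ACSS2-flox replicate 1 was far below the other 5 libraries. Psmd13 differed by 0.54 ± 0.27 (log2, SE), at a limma adjusted p of 0.670 and an exact permutation p of 0.1, the smallest possible, and by 0.21 without that library. Psmd8, another lid subunit and the most abundant cap gene, had 111, 95.1 and 81.0 FPKM in ACSS2-HKO, against 62.7, 76.8 and 88.1 FPKM in ACSS2-flox. Its groups overlapped, at a log2 fold change of 0.33 ± 0.20 (SE), a limma adjusted p of 0.706 and a value of 0.20 without that library.

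Psmd14, the deubiquitinase of the cap, had 28.4, 24.2 and 21.4 FPKM in ACSS2-HKO, against 24.3, 20.1 and 26.9 FPKM in ACSS2-flox, and Psmd4, a ubiquitin receptor, had 56.3, 67.9 and 60.4 FPKM in ACSS2-HKO, against 70.6, 60.2 and 62.4 FPKM in ACSS2-flox. Both overlapped between the groups, and both were named after their values were seen. The mean FPKM of the constitutive core over that of the cap was 1.89, 2.02 and 1.90 in ACSS2-HKO, against 2.61, 1.75 and 1.88 in ACSS2-flox. This ratio differed most in ACSS2-flox replicate 1, where core genes were high and several cap genes low. The groups overlapped, and without that library every ACSS2-HKO ratio was above both ACSS2-flox ratios, by as little as 1.889 in ACSS2-HKO against 1.883 in ACSS2-flox.

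Chaperones of cap assembly with Psmd symbols, Psmd5, Psmd9 and Psmd10, leave before the particle is finished. Psmd10, known as gankyrin and studied in liver cancer, had 7.32, 9.09 and 9.95 FPKM in ACSS2-HKO, against 6.60, 5.83 and 8.01 FPKM in ACSS2-flox, a log2 fold change of 0.32 ± 0.19 (SE) with a limma adjusted p of 0.698. The groups overlapped through ACSS2-HKO replicate 1 and ACSS2-flox replicate 3. Psmd9 had 19.1, 21.8 and 10.95 FPKM in ACSS2-HKO, against 11.01, 21.7 and 23.2 FPKM in ACSS2-flox. It was low in both distant libraries, ACSS2-HKO replicate 3 and ACSS2-flox replicate 1, and its log2 fold change was -0.09 ± 0.33 (SE). Psmd5 averaged 18.6 ± 2.52 FPKM in ACSS2-HKO and 17.0 ± 4.61 FPKM in ACSS2-flox (SD, n = 3 each).

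Activators bind the ends of the core in place of the cap. Psme1 and Psme2, the interferon-inducible pair that forms the ring PA28, had 101.3, 106 and 113 FPKM (Psme1) and 54.3, 66.9 and 67.4 FPKM (Psme2) in ACSS2-HKO, against 142, 79.1 and 98.9 FPKM (Psme1) and 86.1, 41.6 and 53.8 FPKM (Psme2) in ACSS2-flox. ACSS2-flox replicate 1 was the highest and ACSS2-flox replicate 2 the lowest for both, so that the ACSS2-HKO values lay between them. The log2 fold changes were 0.04 ± 0.23 and 0.11 ± 0.27 (SE), with limma adjusted p of 0.973 and 0.937, and both turned negative under TMM, median-ratio and voom scaling. Leaving out ACSS2-flox replicate 1 gave 0.27 for Psme1 and 0.40 for Psme2. Psme2b is a near-identical copy of Psme2, and how the authors' counting divided fragments between them is not known, so both rows are uncertain. Psme1 over Psme2 was 1.87, 1.59 and 1.67 in ACSS2-HKO, against 1.65, 1.90 and 1.84 in ACSS2-flox.

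Psme4, the nuclear activator PA200, had 15.8, 18.3 and 15.7 FPKM in ACSS2-HKO, against 8.46, 18.3 and 16.3 FPKM in ACSS2-flox. It differed by 0.26 ± 0.27 (log2, SE; limma adjusted p = 0.842), and by -0.06 without ACSS2-flox replicate 1, the single low library. Psme3, the other nuclear activator, averaged 19.04 ± 2.17 FPKM in ACSS2-HKO and 18.5 ± 6.76 FPKM in ACSS2-flox (SD, n = 3 each). Psmf1, which encodes the inhibitor PI31, had 11.02, 9.32 and 7.43 FPKM in ACSS2-HKO, against 8.002, 6.66 and 8.67 FPKM in ACSS2-flox. The groups overlapped, with a log2 fold change of 0.22 ± 0.20 (SE) and a limma adjusted p of 0.806.

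Short and long proteasome genes parted in ACSS2-flox replicate 1. Of the 20 tested rows with a gene length under 1300 bases, as implied by the FPKM values, 19 were higher in that library than the mean of the other 2 ACSS2-flox libraries on the log2 scale, by a median of 0.47. Of the 15 rows from 1300 to under 2000 bases 7 were higher, and of the 9 rows of 2000 bases and over 2 were, with a median of -0.54. Across the 44 rows the correlation of this deviation with log length was -0.67, and across 9816 genes it was -0.40. All points share the same 3 libraries, and genes are not independent replicates. Of the constitutive core and immunoproteasome rows that were tested, each but Psma7 was under 1300 bases (Psmb9 has 1110), while Psme4 is the longest row with 7649 bases. The median length was 1406 bases for the tested rows and 3169 for all genes. That library was the highest of the 6 for 17 of the 44 rows and the lowest for 13. Over all genes tested it was the highest for 15.65% and the lowest for 52.94%.

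**Figure D4:**
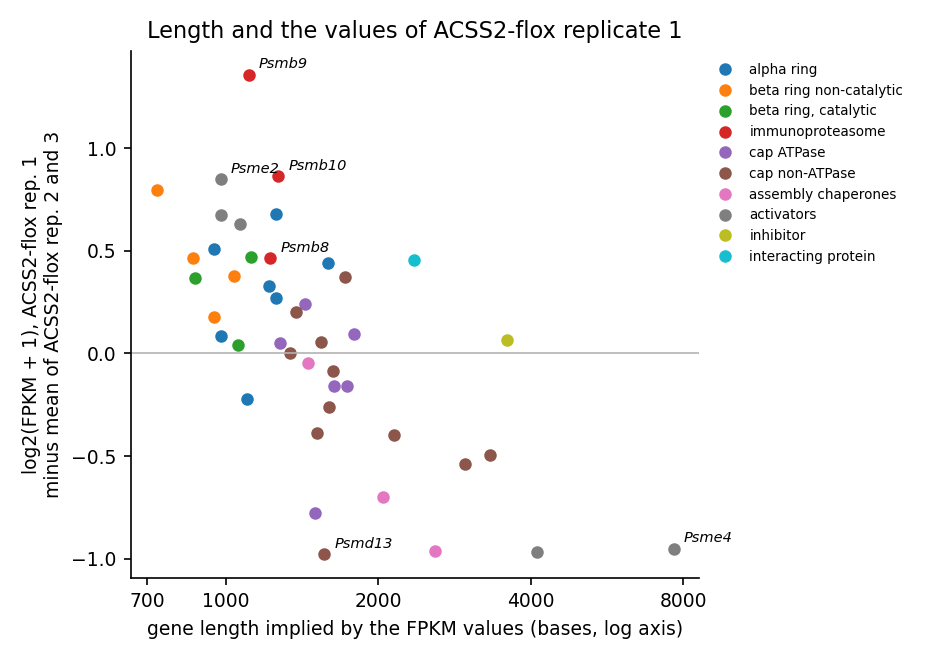
Log2(FPKM + 1) of ACSS2-flox replicate 1 minus the mean of ACSS2-flox replicates 2 and 3 (y axis) against gene length implied by the FPKM values (x axis, log scale, bases), 1 point per tested proteasome row, coloured by role. Rows under 1300 bases lie mostly above 0, with a median of 0.47, and rows of 2000 bases and over mostly below, with a median of -0.54.

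After a correction for gene length in each library the log2 fold changes were 0.37 for Psmb8, 0.24 for Psmb9, 0.06 for Psmb10 and 0.45 for Psmd13, and 0 of 9816 genes passed adjustment by limma. By unadjusted p 397 were higher and 392 lower. On the values as deposited, with no length correction, the median deviations of the inducible subunits were -0.04, -0.02 and 0.58 in ACSS2-HKO, against 0.51, -0.41 and -0.36 in ACSS2-flox. Those of the constitutive core were -0.03, 0.12 and -0.09 in ACSS2-HKO, against 0.28, -0.17 and -0.04 in ACSS2-flox. On these uncorrected values both groups of short genes were thus high in ACSS2-flox replicate 1, whereas in ACSS2-HKO replicate 3 the inducible subunits were high and the constitutive core was not.

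**Figure D5:**
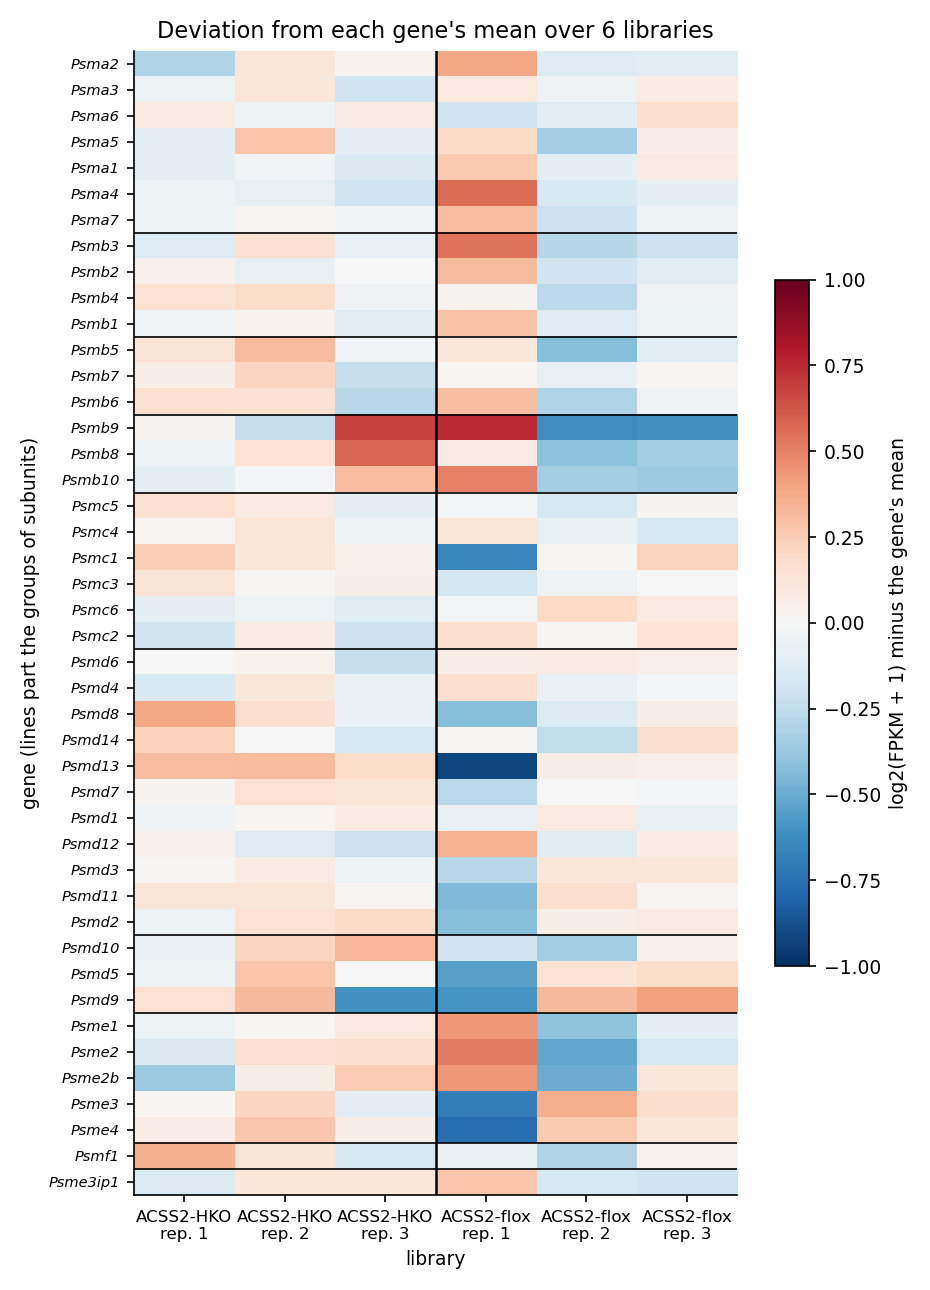
Deviation of log2(FPKM + 1) from each gene's mean over the 6 libraries (colour, red above and blue below the mean) for the 44 tested proteasome rows (y axis, grouped by role) in each library (x axis, ACSS2-HKO left and ACSS2-flox right of the vertical line). The inducible subunits are red in ACSS2-HKO replicate 3 and ACSS2-flox replicate 1, with medians of 0.58 and 0.51, and the core is red in the ACSS2-flox library alone of these, with a median of 0.28.

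With all libraries, partner genes of the proteasome that do not carry its symbols had 0 genes that passed adjustment by limma and 0 with an unadjusted p under 0.05. Over all genes tested 6.09% were higher and 1.5% lower at that unadjusted limit. Assembly factors were positive for 2 of 6 tested, with a median log2 fold change of -0.03. Among other cap subunits and cap-bound enzymes 1 of 5 was positive, the ligase gene Ube3c, and the median was -0.11. Factors of transcriptional control were positive for 8 of 10 (median 0.20), genes of ubiquitin supply and activation for 8 of 11 (median 0.05), and shuttle factors for 3 of 5 (median 0.10). These counts rest in part on ACSS2-flox replicate 1. Without it 4 of 6 assembly factors (median 0.09), 0 of 5 other cap genes (-0.11), 5 of 10 control factors (0.002), 6 of 11 ubiquitin genes (0.03) and 1 of 5 shuttle factors (-0.11) were positive. In that fit 1 of the 10 control factors was lower in ACSS2-HKO at an unadjusted limma p under 0.05, beside 4.69% of all genes. No other partner gene reached that limit there, and 0 passed adjustment. With TMM scaling the counts of positive genes were 1 of 6, 1 of 5, 5 of 10, 3 of 11 and 1 of 5 in the same order. Psmg2 and Psmg3, which chaperone core assembly, averaged 9.51 ± 0.681 and 11.6 ± 1.39 FPKM in ACSS2-HKO, against 11.02 ± 1.22 and 10.2 ± 0.677 FPKM in ACSS2-flox (SD, n = 3 each). Sem1, a small cap subunit, averaged 105 ± 8.04 FPKM in ACSS2-HKO and 120.1 ± 25.5 FPKM in ACSS2-flox.

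The cap-bound ligase gene Ube3c had 9.32, 9.59 and 8.92 FPKM in ACSS2-HKO, against 3.47, 10.4 and 10.3 FPKM in ACSS2-flox, with ACSS2-flox replicate 1 low. Stat3, a transcription factor of the control list, had 24.7, 28.5 and 30.2 FPKM in ACSS2-HKO, against 11.2, 24.1 and 26.1 FPKM in ACSS2-flox, with the same library low. Its log2 fold change was 0.51 ± 0.30 (SE) and 0.14 without that library. Mafk, a partner of NFE2L1 and NFE2L2, averaged 1.90 ± 0.0884 FPKM in ACSS2-HKO and 1.37 ± 0.354 FPKM in ACSS2-flox, and the ubiquitin-activating enzyme gene Uba1 averaged 38.6 ± 1.34 FPKM in ACSS2-HKO and 31.5 ± 6.29 FPKM in ACSS2-flox (SD, n = 3 each). The groups did not overlap for these 2 genes, with limma adjusted p of 0.697 and 0.723, where 12.5% of all genes were higher without overlap. Ube2d1, a ubiquitin-conjugating enzyme gene, had a log2 fold change of 0.20 ± 0.18 (SE), and the shuttle genes Ubqln2 and Ubqln1 had 0.19 ± 0.19 and 0.14 ± 0.20.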

How the data were processed

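Liver RNA-seq of 3 ACSS2-HKO and 3 ACSS2-flox samples was used, grouped by the genotype label. The authors deposited 1 table of FPKM values per gene and library. The submitters' processing notes name mm10 and DESeq2 with no role, and the aligner, counter, annotation and filters are not named in these sources. Libraries were made with a VAHTS Universal kit, per the labels' protocols, and whether counting used strand is not known. FPKM is a share of a library, so abundant genes lower the others.

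Whole fragment counts, within 0.01, were recovered from the deposited FPKM values for 16102 of 16135 genes (99.8%). They gave the depth, the gene lengths and an alternative count test (voom). Of each implied total, 99.2% to 99.4% lay in these genes.

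The 9818 genes that averaged 1 FPKM or more were tested on log2(FPKM + 1) with limma 3.58.1 in R 4.3.3 (eBayes with a trend, two-sided, Benjamini-Hochberg over all genes tested, threshold 0.05). The pseudocount of 1 shrinks fold changes of low genes. Intervals are 95%. The fit was also run on simulated counts with planted changes, which held no distant libraries and no length trend. That run cannot show how the fit deals with either. Single values also had an exact two-sided permutation test over the 6 libraries.

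The proteasome rows, gene lists, marker lists and tests were chosen with earlier results of these data known. Named in full were the catalytic subunits, Psme1, Psme2, and, per role, the row of smallest p and the one of highest mean. Of each pathway list the 2 genes of smallest p were named, and the 5 genes most like the inducible subunits. Cell marker lists were summed. Endothelial markers summed to 161 to 191 FPKM in ACSS2-HKO and 57.5 to 248 in ACSS2-flox, stellate markers to 128 to 196.5 in ACSS2-HKO and 104 to 178 in ACSS2-flox, cholangiocyte markers to 34.6 to 70.6 in ACSS2-HKO and 26.0 to 56.0 in ACSS2-flox, and erythroid markers to 463 to 622.5 in ACSS2-HKO and 465 to 1271 in ACSS2-flox.

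Alternatives were pseudocounts of 0.1 and 5, no filter and one at 5 FPKM, TPM, TMM, median-ratio and quantile scaling, no trend, array weights, a loess correction for length (span 0.5), voom, a replicate block and libraries left out. Leaving out ACSS2-flox replicate 1 together with median-ratio scaling was chosen after seeing the data.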

Additional observations from a re-analysis of the deposited data

How the results depend on the processing

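With 3 libraries a genotype, 2 of them distant from the rest, small differences in proteasome genes cannot be told from the spread between libraries. No setting gave a proteasome row past the adjusted threshold. Genes called over the whole table numbered 0 except with the replicate block (4) and among fits without 1 library (0 to 3, the 3 without ACSS2-HKO replicate 2). Deviations of same-numbered libraries from their group means had correlations of 0.013, 0.003 and -0.063. With 3 libraries a genotype these can neither show nor exclude a pairing, and the labels name none. Proteasome rows higher at an unadjusted limma p under 0.05 were 0 of 44 in the fit of all libraries, beside 598 of 9818 genes. They numbered 1 with TPM and 3 with array weights, beside 553 and 753 of all genes. Without both distant libraries they were 3, beside 527 genes. Without ACSS2-flox replicate 1 with median-ratio scaling they were 2, beside 436 genes. Without 1 library they ranged from 0 to 3. Of these fits, that without ACSS2-flox replicate 1 gave 3, beside 502 genes, and that without ACSS2-flox replicate 2 gave 1, beside 535.

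The median of all genes tested was 0.10 as deposited and -0.04 with TMM, median-ratio or voom scaling, and the share of higher genes among those with an unadjusted p under 0.05 was 80.3% as deposited, 47.0% with TMM, 47.7% with median-ratio, 52.3% with quantile, 50.3% with length correction, 46.1% with voom and 52.2% without ACSS2-flox replicate 1. The counts were 598 higher and 147 lower as deposited, 313 and 353 with TMM, 303 and 355 with voom, 753 and 382 with array weights, 917 and 212 with no filter, 311 and 119 at 5 FPKM, 282 and 74 without ACSS2-HKO replicate 3, and 502 and 460 without ACSS2-flox replicate 1. The median of the proteasome rows was -0.109 with TMM, -0.103 with median-ratio and -0.105 with voom, and 0.019 to 0.088 without 1 library. That of the immunoproteasome was positive in all settings, at 0.148 with TMM and 0.059 to 0.605 without 1 library.

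The cause of the turns of sign that follow was not tested. With TMM, median-ratio and voom the log2 fold changes were -0.035, -0.029 and -0.018 for Psmb10, -0.159, -0.153 and -0.169 for Psmb6, -0.152, -0.146 and -0.155 for Psmb7, -0.038, -0.032 and -0.038 for Psmc3, -0.134, -0.128 and -0.147 for Psme1, and -0.062, -0.056 and -0.061 for Psme2. With length correction they were -0.061 for Psmb6, -0.051 for Psmb7 and -0.029 for Psme1. With array weights and without both distant libraries Psma4 was 0.014 and 0.066, and Psme4 was -0.017 and -0.019, with -0.084 for Psme4 without ACSS2-flox replicate 1 with median-ratio scaling. Without 1 library the ranges were -0.338 to 0.018 for Psma4, -0.010 to 0.425 for Psmb10, -0.129 to 0.172 for Psmb6, -0.080 to 0.149 for Psmb7, -0.409 to 0.193 for Psmd9, -0.151 to 0.267 for Psme1, -0.121 to 0.395 for Psme2 and -0.056 to 0.456 for Psme4.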
